A study of Mus musculus with 6 samples.

Results

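Igtp, Irgm1, Irgm2, Iigp1, Gbp2, Gbp3, Gbp5, Gbp6, Gbp7 and Gbp9 encode interferon-inducible GTPases of the immunity-related GTPase (IRG) and guanylate-binding protein (GBP) families. They were taken by symbol from count tables of 47561 rows, where each of the 10 had 1 row, and all 10 passed the filter on low counts. They were selected on their read counts in Piezo1 KO against control, with that difference already known, so their levels in these groups are given as a description without a test. RNA was sequenced from sorted LT-HSCs (long-term hematopoietic stem cells), rare marrow cells that self-renew and can rebuild every blood lineage, of 2 groups of mice. One group is titled Piezo1 KO (3 libraries) and lacks, per its label, Piezo1, which encodes a mechanically gated cation channel. The other is titled control and has the genotype WT (3 libraries). The genotype entry reads Piezo1 knockout for KO replicate 1 but Piezo2 and Piezo3 knockout for KO replicates 2 and 3, and the titles were followed. Strain, age, sex, the deleted exons, any Cre driver and whether a library came from 1 mouse or from a pool are not given in the sources used here, so the spread between libraries may be partly technical.

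Interferon gamma, made mainly by T and NK cells, acts through its receptor and the kinases Jak1 and Jak2, and its signal reaches promoters at the gamma-activated site (GAS) and induces the transcription factor gene Irf1. Type I interferons act through complexes that hold Irf9 on the interferon-stimulated response element (ISRE), and IRG and GBP genes respond to both routes. The proteins mark and disrupt the vacuoles in which intracellular pathogens live. The regulatory IRG proteins Irgm1, Irgm2 and Igtp (Irgm3) hold effector IRG proteins such as Iigp1 (Irga6) inactive on the membranes of the cell itself. In mouse stem cells Irgm1 is known as a brake on interferon-driven proliferation.

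The promoters are shown because they carry the letters through which interferon-activated factors bind. RefSeq windows on GRCm38.p6 ran from 250 bases before to 50 bases after an annotated start. They were used for 7 of the 10 genes (8 windows, as Gbp3 has 2 starts). The promoters of Gbp6, Gbp9 and Iigp1 were not examined. Capitals mark GAS letters (TTCNNNGAA) and ISRE-type letters (GAAANNGAAA, or TTTCNNTTTC on the other strand), and each sequence is written 5′ to 3′ in the direction of transcription. Igtp, chr11:58199306-58199605, plus strand, and Irgm2, chr11:58214727-58215026, plus strand, are neighbours. Irgm1, chr11:48871371-48871670, minus strand, lies in another IRG cluster. Gbp3, chr3:142559794-142560093, plus strand, and Gbp7, chr3:142530086-142530385, plus strand, belong to the GBP cluster of chromosome 3.
Igtp: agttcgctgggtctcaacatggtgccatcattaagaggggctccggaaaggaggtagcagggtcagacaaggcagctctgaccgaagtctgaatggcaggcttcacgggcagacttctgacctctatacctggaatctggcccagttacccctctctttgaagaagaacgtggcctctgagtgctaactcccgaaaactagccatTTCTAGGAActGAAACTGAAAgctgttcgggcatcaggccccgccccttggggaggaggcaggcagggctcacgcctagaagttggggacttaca
Irgm2: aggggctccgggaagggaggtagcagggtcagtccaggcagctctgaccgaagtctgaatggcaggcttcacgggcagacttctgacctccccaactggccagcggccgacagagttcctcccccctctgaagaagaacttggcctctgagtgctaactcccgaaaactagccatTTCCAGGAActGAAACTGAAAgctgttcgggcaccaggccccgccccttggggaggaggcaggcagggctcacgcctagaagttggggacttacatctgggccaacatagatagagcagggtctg
Irgm1: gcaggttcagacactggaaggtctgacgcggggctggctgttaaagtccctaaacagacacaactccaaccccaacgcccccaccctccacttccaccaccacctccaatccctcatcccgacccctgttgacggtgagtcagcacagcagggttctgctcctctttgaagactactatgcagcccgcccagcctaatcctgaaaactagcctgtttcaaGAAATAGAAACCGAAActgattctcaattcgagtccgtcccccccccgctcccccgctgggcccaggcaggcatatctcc
Gbp3: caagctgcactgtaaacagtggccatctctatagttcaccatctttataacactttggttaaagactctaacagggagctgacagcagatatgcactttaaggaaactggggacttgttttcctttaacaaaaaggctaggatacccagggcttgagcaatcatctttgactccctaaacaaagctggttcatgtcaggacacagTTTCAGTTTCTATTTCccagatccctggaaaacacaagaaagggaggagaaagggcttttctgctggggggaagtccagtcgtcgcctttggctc
Gbp7: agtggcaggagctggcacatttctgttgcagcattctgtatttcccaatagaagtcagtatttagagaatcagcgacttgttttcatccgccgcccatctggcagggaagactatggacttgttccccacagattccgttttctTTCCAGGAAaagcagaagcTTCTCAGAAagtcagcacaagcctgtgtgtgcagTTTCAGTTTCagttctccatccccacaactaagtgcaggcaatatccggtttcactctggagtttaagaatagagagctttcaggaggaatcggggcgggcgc

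ISRE-type letters were found in 7 of the 8 windows, which covers each of the 7 genes examined, against 3.44% of 32851 promoter windows of the same length. The window without them was that of the other Gbp3 start. GAS letters were found for 4 of the 7 genes (Igtp, Irgm2, Gbp5 and Gbp7), against 8.30% of all windows, and the same 4 held both motifs, against 0.454%. In Igtp the GAS letters began 45 bases before the start and in Irgm2 75 bases before it, and in both the ISRE-type letters followed after 2 bases. In Irgm1 and Gbp3 no GAS letters were found, and each held 2 ISRE-type matches that overlap by 4 bases. The Igtp and Irgm2 windows were identical in 73.5% of 336 aligned columns, while the other 27 pairs of windows reached at most 54.2%. A match describes letters and does not show that a factor binds.

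**Figure D1:**
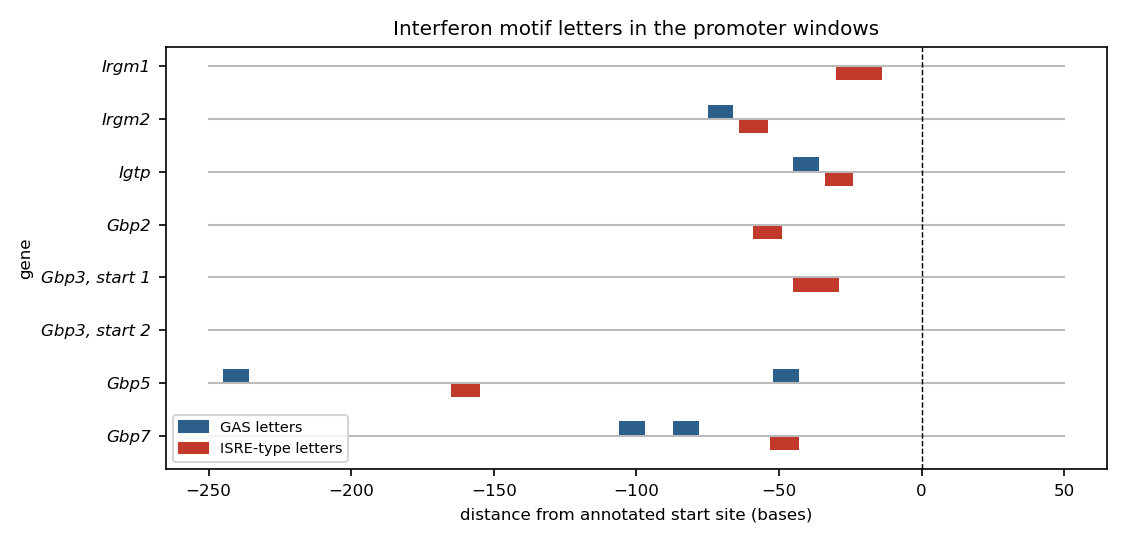
Positions of GAS letters (blue) and ISRE-type letters (red) in the 8 promoter windows, in bases from the annotated start site (dashed line). Each of the 7 genes examined has ISRE-type letters in at least 1 window, and Igtp and Irgm2 have the same pair 2 bases apart.

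The libraries held 59435258 to 64653956 counts. Values below are CPM, read counts scaled to a common library total after TMM (trimmed mean of M values) adjustment. Piezo1 itself had 4.28, 7.99 and 9.46 CPM in KO replicates 1 to 3, against 17.0, 7.02 and 24.3 CPM in control replicates 1 to 3, so the library labelled control replicate 2 lay inside the KO range. Its log2 fold change, KO over control, was -1.15 (SE 0.56, edgeR quasi-likelihood adjusted p = 0.508). The deleted exons are not given, and the source of the Piezo1 reads in KO libraries was not tested. All 12 LT-HSC markers were detected in the series, with a summed level of 1012 to 1352 CPM in KO and 1135 to 1517 CPM in control libraries. Single markers differed in both directions: Procr had 9.68, 26.7 and 4.99 CPM in KO, against 67.1, 56.5 and 22.6 CPM in control, and Kit had 323, 293 and 344 CPM in KO, against 106, 223 and 226 CPM in control. The log2 fold changes were -1.82 (SE 0.67) for Procr, 0.79 (SE 0.29) for Kit, 0.99 (SE 0.58) for Tek and -1.41 (SE 0.39) for Ly6a. Markers of other cells differed between libraries. The summed level of 8 granulocyte genes was 11734 CPM in control replicate 3, against 18.7 and 57.2 CPM in control replicates 1 and 2, and 6.05 to 1060.4 CPM in KO. Erythroid markers (9 genes) summed to 8259 to 26338 CPM in KO and 2591 to 7624 CPM in control. Within them the 4 globin genes had log2 fold changes of 2.80 to 3.08, whereas Car1 was at -1.22 (SE 0.45) and Klf1 at -0.67 (SE 0.29). Megakaryocyte markers (7 genes) summed to 1680 to 2509 CPM in KO and 779.7 to 1050 CPM in control. Macrophage and monocyte markers (11 genes) summed to 26.1, 32.7 and 90.1 CPM in KO and 30.6, 90.7 and 256 CPM in control. Of the 256 CPM in control replicate 3, Ly6c2 alone made up 227 CPM. The sums in KO and control were 33.7 to 36.9 and 31.1 to 86.5 CPM for B cell markers. They were 2.25 to 10.2 and 3.58 to 16.4 CPM for dendritic cell markers, and 50.8 to 58.3 and 36.4 to 57.4 CPM for endothelial markers. In such bulk libraries fewer cells of a type and less RNA per cell cannot be told apart.

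Together the 10 genes amounted to 352 ± 63.0 CPM in KO libraries, against 717 ± 199 CPM in control libraries (SD, n = 3 each). The KO libraries held 294, 419 and 342 CPM and the control libraries 869.9, 789.7 and 491 CPM. The groups thus did not overlap in the sum, and control replicate 3 stood between its group and the KO libraries. Of the 10 genes, 9 had a negative log2 fold change, against 47.8% of the 16022 tested genes. Their median was -1.14, against 0.03 over all tested genes. In 3 genes (Irgm1, Igtp and Gbp3) every KO library lay below every control library, as did 8.76% of all tested genes. The quasi-likelihood test of edgeR called 0 of the 10 genes at an adjusted p under 0.05, as it called 0.0% of all genes. At an unadjusted p under 0.05 it counted 4 of the 10 as lower (Irgm1, Igtp, Iigp1 and Gbp3), against 5.59% of all genes. DESeq2 gave an adjusted p to 9 of the 10 genes (not to Gbp5) and to 9173 genes in all. It called the same 4 lower at an adjusted p under 0.05, against 3.59% of those genes, and 0 of the 9 higher, against 2.09%. As the choice of the genes used this contrast, these counts are not evidence for it.

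**Figure D2:**
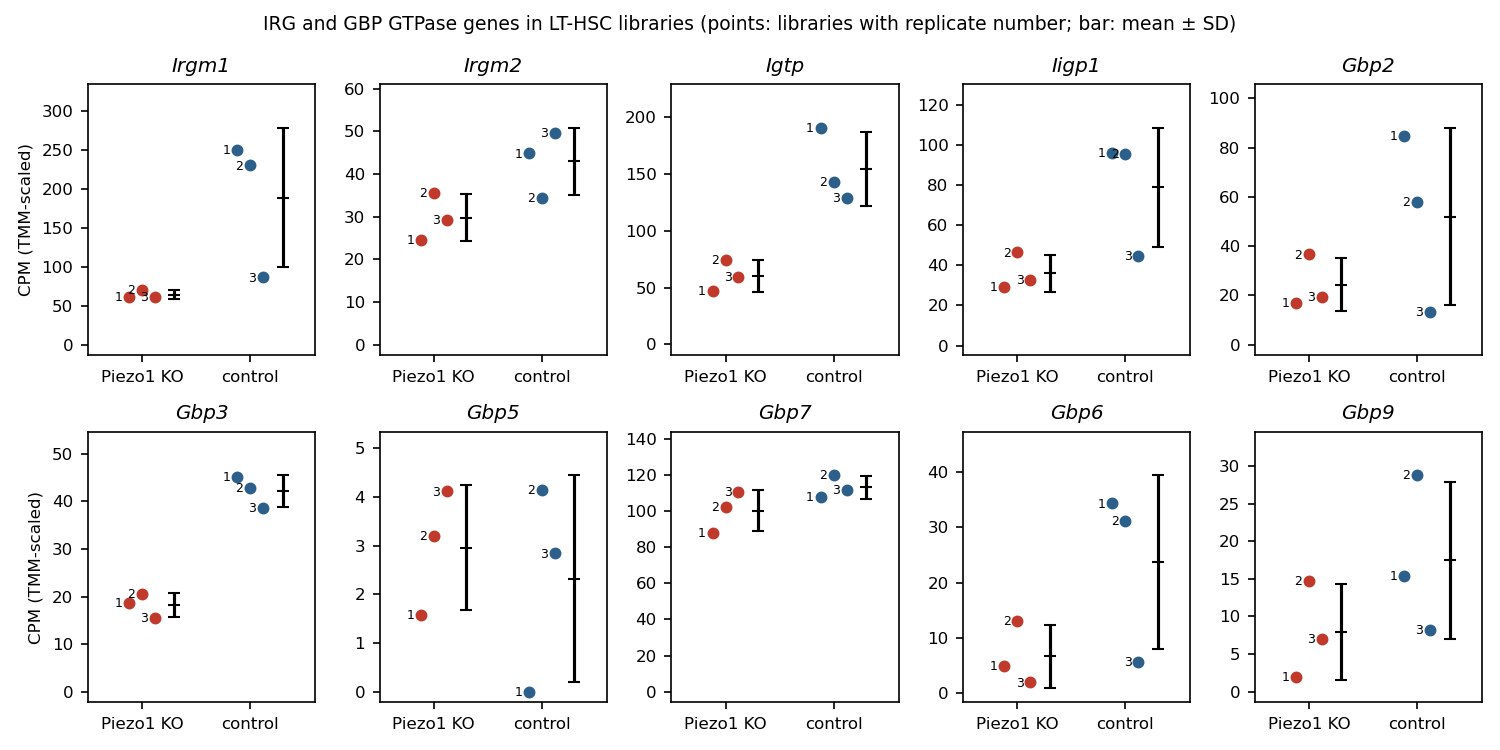
CPM of each gene in the 3 KO (red, left) and 3 control (blue, right) libraries, numbered by replicate, with the mean and SD as bars and an axis of its own for each gene. KO lay below control without overlap in Irgm1, Igtp and Gbp3, and control replicate 3 fell in or near the KO range in Irgm1, Iigp1, Gbp2, Gbp6 and Gbp9.

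Among the regulatory IRG genes on chromosome 11, Irgm1 had 61.9, 71.3 and 62.0 CPM in KO, against 251, 231 and 87.1 CPM in control. The KO libraries lay close together, whereas control replicate 3 was at 0.362 of the mean of the other controls. The log2 fold change was -1.54 (SE 0.38). Igtp had 46.7, 74.7 and 59.1 CPM in KO and 191, 143 and 129 CPM in control, with a log2 fold change of -1.36 (SE 0.24). For Igtp each control library was well above the highest KO library. Irgm2, the neighbour of Igtp with the similar promoter, had 24.5, 35.6 and 29.2 CPM in KO, against 44.8, 34.3 and 49.7 CPM in control. Its groups overlapped, since KO replicate 2 exceeded control replicate 2, and its log2 fold change was -0.53 (SE 0.25). Irgm2 was the 1 gene of the 10 that was highest in control replicate 3. After removal of trends on exon length and GC content, an alternative chosen after seeing the data, its log2 fold change was -0.36.

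Iigp1 on chromosome 18, the effector IRG gene of the set, had 29.1, 46.5 and 32.8 CPM in KO and 96.3, 95.9 and 44.8 CPM in control. Control replicate 3 lay just under KO replicate 2, so the groups overlapped. The log2 fold change was -1.13 (SE 0.35).

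The GBP genes of chromosome 3 did not share 1 pattern. Gbp3 had 18.6, 20.6 and 15.6 CPM in KO, against 45.1, 42.9 and 38.6 CPM in control, a log2 fold change of -1.21 (SE 0.23). It had the second smallest spread between control libraries of the 10 genes, with a coefficient of variation of 7.83%, and its groups stood clearly apart. Gbp2, whose protein goes to Toxoplasma vacuoles, had 16.9, 36.7 and 19.5 CPM in KO, against 84.6, 58.1 and 13.3 CPM in control. Control replicate 3 was the lowest of all 6 libraries, so the groups overlapped. Its log2 fold change was -1.09 (SE 0.64), -0.55 without control replicate 1 and -1.55 without control replicate 3.

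Gbp7, known in mouse macrophages for the assembly of the phagocyte oxidase, had 87.9, 103 and 111 CPM in KO, against 108, 120.1 and 112 CPM in control. These values overlapped and all 6 libraries were close, with a log2 fold change of -0.18 (SE 0.16). Gbp5, which promotes the Nlrp3 inflammasome in macrophages, had 1.58, 3.19 and 4.10 CPM in KO, against 0, 4.13 and 2.84 CPM in control. Its 0 in control replicate 1 allows up to 3 counts, or 0.0495 CPM, for counting error alone. The Gbp5 log2 fold change was 0.35 (SE 1.63) and turned to -0.24 without that library, so it has no stable direction.

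The GBP genes of chromosome 5 were low and variable. Gbp6 had 4.90, 13.0 and 1.91 CPM in KO, against 34.4, 31.1 and 5.59 CPM in control, with a log2 fold change of -1.84 (SE 0.87). Control replicate 3 lay inside the KO range. Without KO replicate 2 the Gbp6 value was -2.80. Gbp9 had 1.96, 14.7 and 7.06 CPM in KO and 15.4, 28.8 and 8.25 CPM in control, and its groups overlapped as well. The log2 fold change of Gbp9 was -1.14 (SE 0.77), -1.96 without KO replicate 2 and -0.60 without control replicate 2. Genes of this cluster are similar in sequence, so reads may have been split between them. Summed over its 6 genes (Gbp8, Gbp9, Gbp4, Gbp10, Gbp6 and Gbp11) the level was 15.4, 51.3 and 17.5 CPM in KO, against 80.1, 102 and 21.3 CPM in control. The groups overlapped in this sum, since KO replicate 2 exceeded control replicate 3.

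Control replicate 3 was the lowest control in 7 of the 10 genes, while this library was the lowest control in 32.9% of all tested genes. KO replicate 2 was the highest KO library in 8 of the 10, and KO replicate 1 the lowest of all 6 libraries in 6. For these counts of KO replicates 1 and 2 the shares of all tested genes are not given here. Without control replicate 3 the KO libraries lay below the remaining controls in 7 genes (17.5% of all tested genes), and without KO replicate 2 also in 7 (12.5%). The number was 3 without KO replicate 1 (13.6%) and 4 without KO replicate 3 (11.4%), control replicate 1 (11.7%) or control replicate 2 (15.1%). Control replicate 3 is also the library with the most granulocyte RNA and the highest sum of macrophage and monocyte markers, as given above. That sum was mostly Ly6c2 (227 CPM). Apart from Ly6c2 and Ccr2, each macrophage and monocyte marker was lower there than in control replicate 2. The part of granulocyte, macrophage or monocyte RNA in the levels of the 10 genes was not tested.

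**Figure D3:**
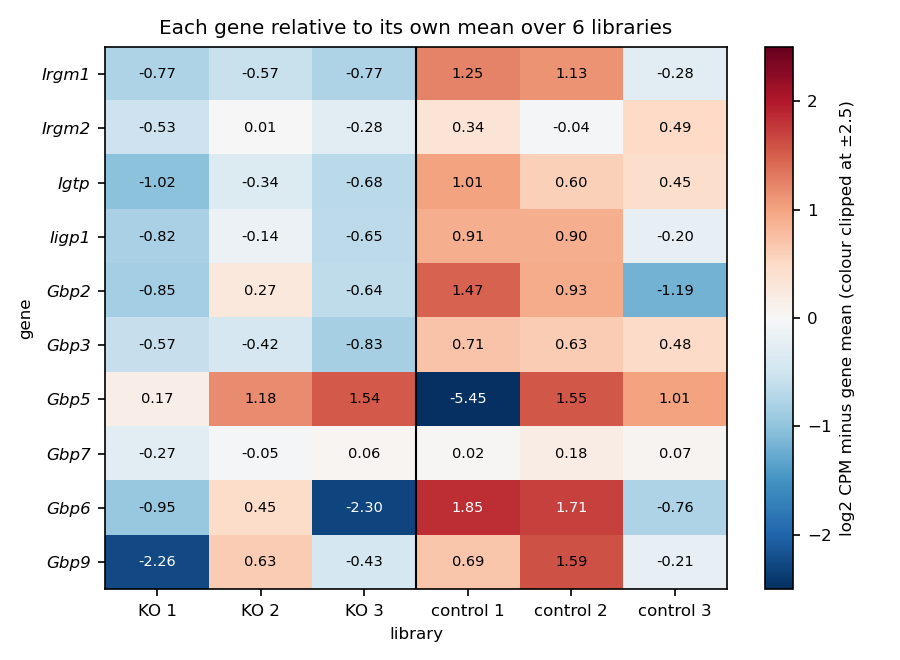
Log2 CPM of each gene minus its own mean over the 6 libraries, KO left of the line and control right of it. Irgm1, Iigp1, Gbp2, Gbp6 and Gbp9 share negative values in control replicate 3, whereas Irgm2, Igtp and Gbp3 are positive there, and Gbp5 is at -5.45 in control replicate 1, where it had 0 counts.

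Deviations from the group means were compared to see which genes varied together apart from the difference between groups. Over the 6 libraries 32 of 45 pairs had a positive Pearson r, and the median was 0.50. All genes of a library share its depth and cell composition, which differed between libraries, and their part in these r was not tested. Iigp1 and Gbp2 had r = 0.98, Irgm1 and Gbp2 0.96, Gbp3 and Gbp6 0.93, and Irgm1 and Iigp1 0.93, although these genes lie on different chromosomes. Irgm2 and Gbp5 stood apart, with a median r to the other 9 genes of -0.09 and -0.38. With 4 free values behind each r these are descriptions only.

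Per kilobase of exon (GENCODE M21 union of exons), which allows levels of different genes to be compared, Igtp was the most abundant of the 10 in both groups, at 29.8 ± 6.94 CPM per kb in KO and 76.4 ± 15.95 in control (SD, n = 3 each). In KO the next gene was Gbp7 at 17.9 ± 2.04 CPM per kb, clear of Igtp above and Irgm1 below. Irgm1 followed at 11.2 ± 0.926, then Gbp2 at 9.68 ± 4.28, Irgm2 at 8.07 ± 1.51, Iigp1 at 6.20 ± 1.57 and Gbp3 at 5.59 ± 0.782 CPM per kb, each overlapping its neighbour in the order. In control Irgm1 came second at 32.6 ± 15.4 CPM per kb, then Gbp2 at 20.7 ± 14.3 and Gbp7 at 20.2 ± 1.12, and these 3 overlapped from neighbour to neighbour. Iigp1 at 13.6 ± 5.09, Gbp3 at 12.9 ± 1.01 and Irgm2 at 11.6 ± 2.13 CPM per kb formed a further overlapping group in control. Gbp6, Gbp9 and Gbp5 were the lowest in both groups, between 0.445 and 1.53 CPM per kb in KO and between 0.350 and 3.98 in control. Gbp7 made up 24.5% to 32.4% of the summed CPM of the 10 genes in KO libraries and 12.4% to 22.8% in control libraries.

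The other IRG and GBP genes were listed with earlier results of these data known, but not picked for how they moved. Of 29 listed symbols 17 were rows of the tables and 14 were tested. In edgeR 0 of the 14 passed over all genes, and 4 were lower at an unadjusted p under 0.05 (5.59% of all genes). A negative log2 fold change was found in 13 (47.8% of all genes), and the median was -1.20. The 4 were Tgtp1, Tgtp2, Ifi47 and Gm12250, IRG genes next to Irgm1 or Igtp. In these 4 every KO library lay below every control library, as did 8.76% of all tested genes. DESeq2 gave an adjusted p to 5 of the 14, these 4 and Gm4951, and called these 4 lower, against 3.59% of its genes, with adjusted p-values of 6.47e-05, 3.75e-05, 0.00421 and 0.0218.

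Tgtp1 (Irgb6), an effector IRG gene, had 109, 173 and 139 CPM in KO, against 552, 479.7 and 237 CPM in control. The log2 fold change was -1.59 (SE 0.34, edgeR adjusted p = 0.255). Its near-identical copy Tgtp2 had 139, 214 and 180.0 CPM in KO, against 648, 543 and 309.6 CPM in control, with a log2 fold change of -1.49 (SE 0.30, edgeR adjusted p = 0.255). Reads of the 2 copies may have been split between them. Ifi47 (Irgd) had 205, 204 and 164 CPM in KO and 369, 313 and 274 CPM in control, with a log2 fold change of -0.74 (SE 0.18, edgeR adjusted p = 0.264). Gm12250 (Irgb10), which acts on bacterial membranes, had 24.0, 36.2 and 21.9 CPM in KO and 86.9, 45.4 and 54.2 CPM in control, with a log2 fold change of -1.18 (SE 0.33, edgeR adjusted p = 0.296). In all 4 genes each KO library was below each control library, and control replicate 3 was the lowest control in Tgtp1, Tgtp2 and Ifi47.

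The other 10 tested genes of the family overlapped between groups. Their log2 fold changes were -1.93 for Gbp10, -0.86 for Gbp4 and -0.67 for Gbp8 of chromosome 5, and -1.22 for Gm4841, -1.01 for F830016B08Rik and -0.27 for Gm4951, neighbours of Iigp1. Those of 9930111J21Rik1, 9930111J21Rik2 and Gm5431 were -2.21, -1.94 and -1.46 at levels under 4 CPM in each library, and that of Irgq, a divergent member of the IRG family, was 0.07. The edgeR adjusted p-values of these 10 were 0.554 or more. Gbp2b and Irgc1 had 0 counts in all 6 libraries, which allows up to 3 counts per library (0.0440 to 0.0539 CPM), and Gbp11 had counts in KO replicate 2 alone, where it had 69.

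**Figure D4:**
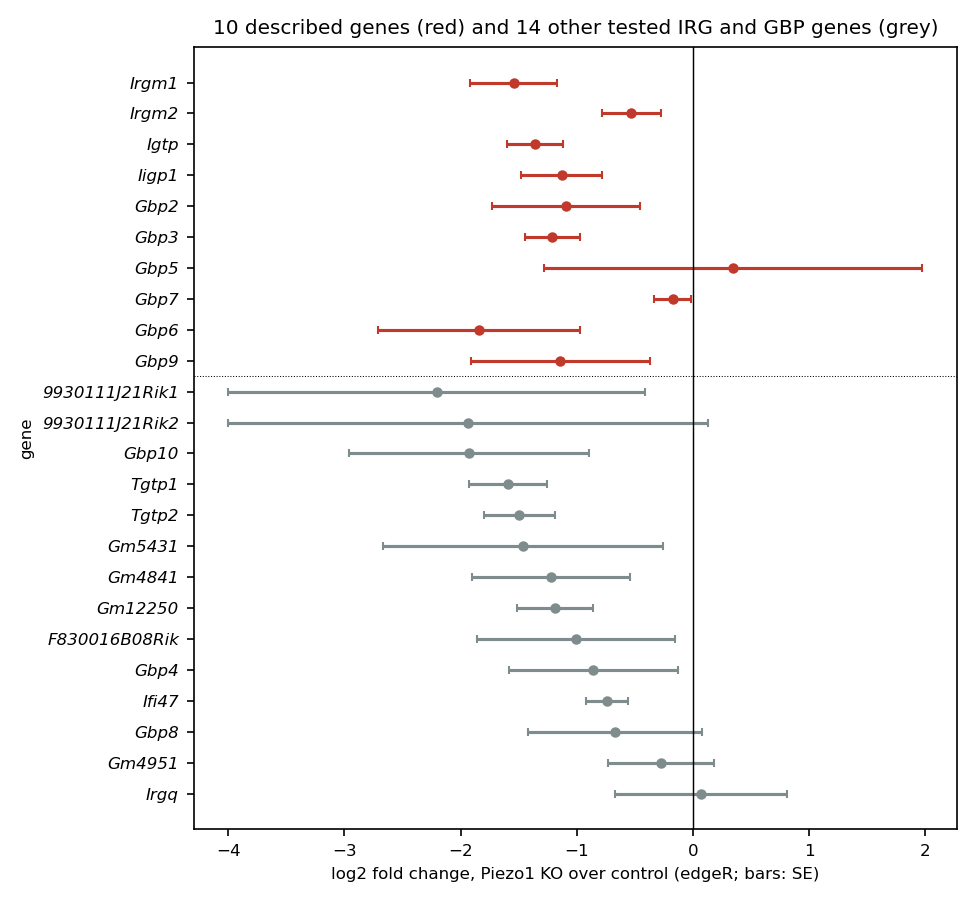
Log2 fold change of KO over control with its SE from edgeR for the 10 described genes (red, above the dotted line) and the 14 other tested IRG and GBP genes (grey). Gbp5 and Irgq are the genes right of 0, and neither differs from 0 by more than its SE.

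Among related interferon-inducible GTPases outside these families, Mx1, an antiviral dynamin-like GTPase gene, had 0, 1.98 and 0.176 CPM in KO, against 5.07, 3.22 and 6.97 CPM in control (log2 fold change -2.82, SE 1.71, edgeR adjusted p = 0.608), so the groups did not overlap at these low levels. The very large GTPase genes Gvin1 and Gvin2 overlapped between groups, with log2 fold changes of -0.45 each, as did Gvin-ps1 at -0.42 and Mx2 at 0.19. None of the 6 tested genes of this list had an unadjusted p under 0.05.

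Interferon genes themselves were hardly detected. Of 9 listed interferon genes 8, including Ifng and Ifnb1, had 0 counts in all 6 libraries, and Ifnk had 17 counts in all, from control replicate 2. Of 8 NK markers 5 (Ncr1, Gzma, Gzmb, Klrd1 and Eomes) were also at 0 in every library. Klrb1c had 1.39, 0 and 0 CPM in KO, against 1.14, 1.44 and 1.08 CPM in control. Prf1 had 40 counts, in KO replicate 3 alone, and Nkg7 is given below. The 10 T cell markers summed to 6.54 to 33.0 CPM in KO and 6.57 to 20.7 CPM in control, with Cd8a at 0 throughout. KO replicate 2, the highest KO library in 8 of the 10 described genes, held 8.11 CPM of Cd3d, 4.50 CPM of Cd3g and 11.1 CPM of Trbc2, while these 3 were at 0 in the other KO libraries and at most at 0.806 CPM in a control library. Cd3e, Cd5 and Trac had 0.116, 0.648 and 0.432 CPM in KO replicate 2 and 0 in every other library. Cd4, Lck and Thy1 were not highest in KO replicate 2, where they had 0.282, 4.80 and 3.02 CPM. Cd4 and Lck reached 2.62 and 15.8 CPM in control replicate 2, and Thy1 4.98 CPM in control replicate 3. The part of T cell transcripts in the levels of the described genes was not tested. Of 2 other cytokine genes in this list that were tested, Il12a was at 0.47 (SE 0.42) and Il18 at 0.11 (SE 0.35) on the log2 scale. Nkg7, a cytotoxic granule gene that other blood cells can express, averaged 248 CPM in KO libraries (SD 2.13, n = 3) and 159 CPM in control libraries (SD 42.6, n = 3).

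Of the 8 tested receptor and kinase genes 0 passed over all genes in edgeR. At an unadjusted p under 0.05 1 was higher (5.44% of all genes) and 1 lower (5.59%). The receptor genes of interferon gamma had log2 fold changes of -0.33 (SE 0.25) for Ifngr1 and -0.36 (SE 0.35) for Ifngr2. Jak2, which signals from Ifngr2 and from many cytokine receptors, had 78.8, 93.8 and 99.8 CPM in KO, against 28.4, 53.2 and 43.4 CPM in control. Its log2 fold change was 1.12 (SE 0.26, edgeR adjusted p = 0.255, DESeq2 adjusted p = 0.00657), and all 3 KO libraries were above the controls. Ifnar2, a subunit of the type I receptor, had 58.6, 62.7 and 57.7 CPM in KO, against 71.1, 67.9 and 83.6 CPM in control, without overlap (log2 fold change -0.32, SE 0.17, edgeR adjusted p = 0.566). Il10rb, a subunit of the interferon lambda and interleukin receptors, was the lower gene at an unadjusted p under 0.05, at -0.75 (SE 0.29, edgeR adjusted p = 0.412).

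Of 12 transcription factor genes 0 passed over all genes in edgeR. At an unadjusted p under 0.05 3 were lower (5.59% of all genes) and 0 higher (5.44%). Irf1, which binds ISRE-type letters, had 33.5, 53.8 and 40.5 CPM in KO, against 62.1, 110.4 and 56.3 CPM in control. The 2 groups did not overlap, by a small margin, and the log2 fold change was -0.84 (SE 0.32, edgeR adjusted p = 0.407). Irf7, which amplifies type I interferon responses, was at -1.11 (SE 0.41, edgeR adjusted p = 0.397) and Irf3, the sensor-activated factor, at -0.62 (SE 0.20, edgeR adjusted p = 0.360). Irf9, whose protein gives the type I interferon complex its ISRE binding, was at -0.54 (SE 0.28). Irf2, which opposes Irf1 at many promoters, was at 0.54 (SE 0.34).

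The 11 feedback genes had a median of 0.05, and in edgeR 0 had an unadjusted p under 0.05 and 0 passed over all genes. The 5 with the smallest p were Irf2bp2, a corepressor gene that binds Irf2, at 0.84 (SE 0.48), the phosphatase gene Ptpn11 at 0.61 (SE 0.38), Usp18, a brake on the type I receptor, at -0.55 (SE 0.44), the adaptor gene Sh2b3 at -0.60 (SE 0.54) and Socs1, an inhibitor of Jak kinases, at -0.74 (SE 0.74). Their directions were thus mixed.

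Of 12 tested other targets of interferon gamma, 9 had a negative log2 fold change (47.8% of all genes) and 3 a positive one, and the median was -0.44. In edgeR 0 passed over all genes. At an unadjusted p under 0.05 3 were lower (5.59% of all genes) and 0 higher (5.44%). Ly6a, the stem cell antigen Sca-1, had 89.2, 206 and 72.8 CPM in KO, against 324, 373 and 284 CPM in control (log2 fold change -1.41, SE 0.39, edgeR adjusted p = 0.297). Psmb8, an immunoproteasome subunit gene, had 479, 454 and 427 CPM in KO and 732, 626 and 606 CPM in control (-0.53, SE 0.15, edgeR adjusted p = 0.297). Bst2, the antiviral tether, was at -0.84 (SE 0.30, edgeR adjusted p = 0.381), Psmb9 at -0.31 (SE 0.15) and the peptide transporter gene Tap1 at 0.63 (SE 0.37).

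**Figure D5:**
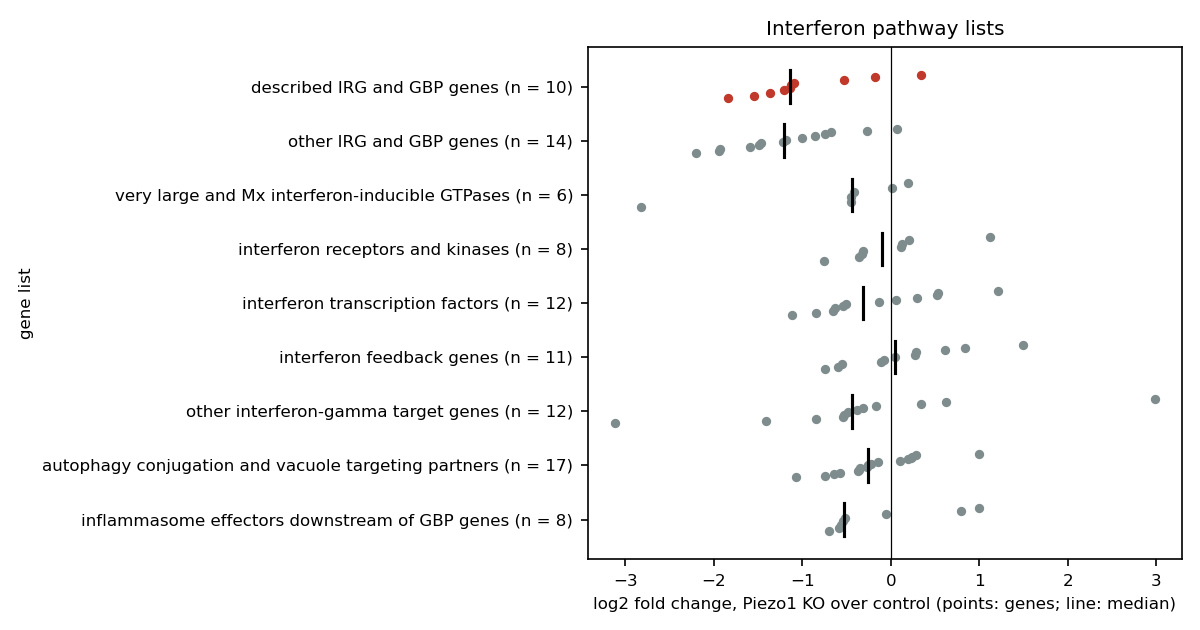
Log2 fold change of KO over control for each tested gene of 9 lists, with the median as a line. The medians are -1.14 for the described genes and -1.20 for the other IRG and GBP genes, and between -0.53 and 0.05 for the other 7 lists.

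Proteins of the autophagy conjugation machinery place IRG and GBP proteins on vacuoles and keep them off other membranes. Of 17 tested genes 0 passed over all genes in edgeR. At an unadjusted p under 0.05 2 were lower (5.59% of all genes) and 0 higher (5.44%). Atg16l1, of the enzyme complex that conjugates LC3, had 12.3, 12.8 and 20.5 CPM in KO, against 33.5, 35.3 and 27.1 CPM in control, without overlap (log2 fold change -1.07, SE 0.31, edgeR adjusted p = 0.311). Map1lc3b, an LC3 gene, had 258, 301 and 237 CPM in KO and 496, 441 and 309 CPM in control (-0.65, SE 0.21, edgeR adjusted p = 0.361). Gabarapl2 (Gate-16), needed for the spread of GBP and IRG proteins in the cell, was at 0.28 (SE 0.16), Atg5 at -0.35 (SE 0.16) and Map1lc3a at -0.57 (SE 0.35).

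GBP proteins also open the way to inflammasomes. In this list of 8 tested genes 0 passed over all genes in edgeR. At an unadjusted p under 0.05 3 were lower (5.59% of all genes) and 1 higher (5.44%). Casp1, the inflammasome protease gene, had 26.9, 37.1 and 27.7 CPM in KO and 59.5, 37.1 and 52.3 CPM in control (-0.70, SE 0.26, edgeR adjusted p = 0.400), with control replicate 2 at the level of KO replicate 2. Pycard, the adaptor Asc, was at -0.51 (SE 0.20, edgeR adjusted p = 0.425), Casp8 at -0.56 (SE 0.23, edgeR adjusted p = 0.440) and Gsdmd, the pore protein gasdermin D, at -0.54 (SE 0.30). Nek7, a kinase required for Nlrp3, was the higher gene, with 37.9, 50.3 and 45.3 CPM in KO against 17.8, 28.0 and 21.2 CPM in control (0.99, SE 0.26, edgeR adjusted p = 0.278). Nlrp3 had 0 counts in all 6 libraries, within the limit that 3 counts per library give.

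Over the 6 libraries, the genes whose log2 CPM was most like the mean of the 10 were sought among 9747 genes averaging at least 5 CPM. The highest Pearson r were those of Zfp942 (0.996), Eef2kmt (0.987), Irf1 (0.987), Nefh (0.986), Anapc4 (0.977), Spg20 (0.971), Ebi3 (0.970), Acer3 (0.970), Nup98 (0.969) and Ly96 (0.967). The mean is pulled down in control replicate 1 by the 0 of Gbp5. With Gbp5 left out, chosen after seeing the data, the 10 highest were Elp5, Pim1, Asb6, Npl, Repin1, Cyb5r1, Gsdme, Fcgrt, Arhgap15 and Elovl1, with r between 0.984 and 0.997, and no gene was in both sets. By deviations from group means the highest were Shroom4, Herc6, Umad1, Zfp942, Ebi3, Ddx28, Eef2kmt, Nefh, Angpt1 and Gbp4, each at 0.99. With Gbp5 left out they were Cr1l, Elp5, Gsdme, Npl, Alox5ap, Letm2, Emb, Asb6, Pim1 and Gimap5, again with no gene in both sets. By both measures the 10 highest genes thus change completely with the inclusion of Gbp5.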

How the data were processed

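RNA of sorted LT-HSCs (TRIZOL, TruSeq RNA kit, strand not stated) was sequenced, per the labels' protocols. Each library has 1 deposited table of raw read counts (47561 gene rows, 2046 of them named in the manner of assembled transcripts, which can share reads with annotated genes). The submitters' processing notes list HISAT2 2.1 and featureCounts 1.6.4, mm10, bcl2fastq 2.19, DESeq2 2.11.40.6 and cutadapt 1.16.5, without role or settings. How reads with several map positions were treated is not stated there.

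Counts were filtered (filterByExpr, 16022 genes), TMM-scaled and tested with the edgeR 4.0.16 quasi-likelihood F test in R 4.3.3, KO over control, with Benjamini-Hochberg adjusted p under 0.05 over all tested genes. The SE is the log2 fold change over the square root of F. The common biological coefficient of variation was 0.755. Floors (3 counts, 0.0440 to 0.0539 CPM) cover counting error only. Library pairs differed by far more than sampling noise (chi-square per gene at least 128). The script was tested on simulated counts. Promoters come from RefSeq, aligned with Biopython 1.88, and lengths from GENCODE M21, both GRCm38. The genes and all lists were chosen with earlier results of these data known. Named were the 10 genes, every tested gene of the other IRG and GBP genes, up to 5 genes with the smallest p per other list, and the 10 genes of highest r. Some genes were named beyond this rule, chosen after their values were seen. They were Nkg7, Klrb1c, Nlrp3, Procr, Kit, Tek, Car1, Klf1, Ly6c2, Ccr2, the T cell genes and untested genes. Alternatives were other size factors and filters, DESeq2 1.42.0, limma-voom (limma 3.58.1), a replicate block, each library left out, sums over neighbouring copies and, added later, length and GC trends.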

Additional observations from a re-analysis of the deposited data

How the results depend on the processing

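The median log2 fold change of the 10 genes stayed negative under every alternative run, from -1.44 to -0.97 (over 9 genes, without Gbp5, with the filter of 5 CPM). An adjusted p under 0.05 was reached by 0 genes higher and 0 lower in the edgeR test, by 192 and 329 in DESeq2, by 0 and 1 with a filter of 5 CPM in 3 libraries, and by 0 to 1 higher and 0 lower with 1 library left out. In limma-voom it was 0 and 0, and its unadjusted counts at 0.05 were 1209 higher and 1022 lower. With 1 library left out the unadjusted counts ranged from 562 to 1339 higher and from 573 to 1299 lower, against 871 and 896 with all. Both were low without KO replicate 3 (562 and 584), 573 were lower without control replicate 1, and 1339 were higher without control replicate 3. Directions turned for genes with small differences. With 1 library left out the log2 fold changes of Irgq ranged from -0.77 to 0.55, of Gm4951 from -0.88 to 0.039, of Gvin-ps1 from -1.13 to 0.036, of Mx2 from -0.39 to 3.81, of Il18 from -0.13 to 0.26 and of Gbp5 from -0.24 to 1.05. Irgq was at -0.22 with the replicate block, -0.20 in limma-voom and -0.38 without length and GC trends. The counts summed over the chromosome 3 GBP genes gave -0.52, against 0.35 for Gbp5 alone. This sum of 125 to 238 CPM mostly holds other genes, as Gbp5 had at most 4.13 CPM. The cause of the shifts between settings was not tested.

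Deviations from group means of same-numbered libraries of the 2 groups correlated at 0.0160 to 0.0380. Other pairs of a KO and a control library were at -0.0389 to 0.00788, so each library correlated best with its own number. Values this small do not settle whether the replicate numbers pair the libraries. With the replicate block the unadjusted counts were 835 higher and 762 lower, 0 passed after adjustment, and the median of the 10 genes was -1.15. At the level of Gbp5, a few CPM with an SE of 1.63, the fold change is not resolved.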

Other observations

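The genes next to the IRG and GBP clusters were looked at by position, after the data were open. The nearest 2 tested protein-coding genes on each side of 4 clusters (RefSeq order, GRCm38.p6) made 16 genes. Their median log2 fold change was 0.09, and 7 were negative (47.8% of all genes). In edgeR 1 had an unadjusted p under 0.05, Zfp951 beside the chromosome 5 GBP genes, which was lower in KO (5.59% of all genes). Zfp951, a zinc finger gene, had 3.32, 4.72 and 0.513 CPM in KO, against 16.9, 11.3 and 13.2 CPM in control, a log2 fold change of -2.27 (SE 0.78, edgeR adjusted p = 0.375). On the other side of that cluster Lrrc8b, a subunit gene of the volume-regulated anion channel, had 38.6, 37.3 and 46.9 CPM in KO, against 10.6, 9.61 and 51.3 CPM in control, where control replicate 3 differed from the others. Gtf2b, a general transcription factor gene beyond Gbp2, averaged 107 CPM in KO libraries (SD 5.45, n = 3) and 132 CPM in control libraries (SD 8.57, n = 3), without overlap.

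Summed over the IRG genes beside Irgm1 (Irgm1, 9930111J21Rik1, 9930111J21Rik2, Tgtp1, Tgtp2 and Ifi47), the level was 515, 664 and 544 CPM in KO, against 1821, 1569 and 911 CPM in control. For Gm12250, Igtp and Irgm2 the sums were 95.3, 147 and 110.1 CPM in KO, against 323, 223 and 233 CPM in control. Both sums separated the groups, while the sum over the 5 chromosome 3 GBP genes was 125, 163 and 149.6 CPM in KO, against 238, 225 and 167 CPM in control, separated by a small margin. In the sum over the 6 chromosome 5 GBP genes, given above, KO replicate 2 (51.3 CPM) exceeded control replicate 3 (21.3 CPM), so the groups overlapped. Of all tested genes 8.76% had every KO library below every control library. The sums hold genes chosen with this contrast known, so the separation is not evidence for it.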
